A study of Mus musculus with 24 samples.

Results

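This is an account of 8 genes that put peptides on MHC class I molecules, measured in the right ventricle of mice after sham surgery or after PSPI, an operation that loads that chamber with both pressure and volume. The genes are B2m, H2-D1, H2-K1, H2-T23, Tap1, Tap2, Tapbp and Nlrc5, and each was taken from the non-control array probes that carry its name, 10 of 55681 in all. Of the 8 genes, 7 had a probe bright enough to be tested, among 12593 tested genes in all. Tap1 was not among them. Total RNA from 24 samples was hybridised to 1-colour Agilent arrays, 1 array per sample. The groups were 10 sham samples and 14 PSPI samples, of which 5 were labelled month 1, 5 month 2 and 4 month 3. All 24 share the strain label M/FVB/10-12, and the labels name no genotype, transgene or drug. Sham titles carry no month, so each month was compared with all 10 shams, although the series' design text speaks of 4 to 5 controls, and which shams belong with which month is not known here. Whether each sample is a separate animal is not stated, and the p-values cover only the variation among the samples given, part of which may be technical. A level below is a log2 processed signal minus the 75th percentile of its own array, and a change is a difference between group means on that scale.

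MHC class I molecules display fragments of the proteins made inside a cell to CD8+ T cells and natural killer cells. A heavy chain (H2-K1 and H2-D1 in the classical set, H2-T23, or Qa-1, in the non-classical set) pairs with beta-2-microglobulin, the product of B2m. The TAP1 and TAP2 transporter brings peptides into the endoplasmic reticulum, tapasin (Tapbp) holds the empty molecule to that transporter, and NLRC5 is a transcriptional co-activator of the class I genes that interferon gamma induces. Cardiomyocytes are known for low class I levels at rest, while endothelial cells and leukocytes of the heart carry more.

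Class I heavy chains resemble one another in sequence, so each member's probes were compared with the other probes of the array. The probe that stood for H2-K1 in the fit, and those of B2m, H2-D1, Tap1, Tap2, Tapbp and Nlrc5, shared no run of 20 bases or more with another probe of the array. A second H2-K1 probe and the H2-T23 probe did share such a run, of 29 bases, shown in capitals:
H2-K1, second probe: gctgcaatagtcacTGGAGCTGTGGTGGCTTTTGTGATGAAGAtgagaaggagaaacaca
H2-T23: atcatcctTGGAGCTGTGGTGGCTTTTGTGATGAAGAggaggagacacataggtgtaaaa
The H2-T23 values are therefore uncertain to the extent that transcripts of other heavy chains bind this probe. Probes were not compared with transcripts, so whether the H2-D1 and H2-K1 probes bind transcripts of other heavy chains was not tested either. The reference genome is of C57BL/6J mice and FVB mice carry another H2 haplotype, and whether a polymorphism lies under a probe was not tested. By the array's own mm9 coordinates the B2m probe lies at chr2:121978401-121978460, the H2-D1 probe at chr17:35403886-35403945, the main H2-K1 probe at chr17:34133055-34133114 and the main Nlrc5 probe at chr8:97051105-97051164. Exon and UTR annotation of that build was not used here.

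Upstream sequence was read for the 6 genes found in a RefSeq promoter table of GRCm38.p6 (B2m, H2-D1, H2-K1, H2-T23, Tap1 and Tapbp), because B2m and the heavy chain genes moved together. These stretches hold matches, in capitals, to 4 motifs named as background for class I promoters: the interferon-response core TTTCNNTT, the X2 box core TGACG, the Y box core CCAAT and the NF-kappaB consensus, each searched on both strands:
B2m, chr2:122147540-122147648, + strand: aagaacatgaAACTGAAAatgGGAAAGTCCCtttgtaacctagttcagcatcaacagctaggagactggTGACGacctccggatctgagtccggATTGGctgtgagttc
H2-D1, chr17:35262913-35263055, + strand: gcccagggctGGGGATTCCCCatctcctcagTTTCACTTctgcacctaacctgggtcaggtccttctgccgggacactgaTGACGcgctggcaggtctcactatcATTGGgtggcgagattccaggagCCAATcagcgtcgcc
H2-K1, chr17:34000349-34000468, - strand: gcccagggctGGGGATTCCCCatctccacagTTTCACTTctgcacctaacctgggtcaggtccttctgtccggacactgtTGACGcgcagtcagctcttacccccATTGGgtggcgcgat
H2-T23, chr17:36032739-36032835, - strand: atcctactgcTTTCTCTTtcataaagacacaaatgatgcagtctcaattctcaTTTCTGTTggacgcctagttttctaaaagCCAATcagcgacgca
In H2-D1 and H2-K1 the same order of NF-kappaB consensus, interferon-response core, X2 box core and Y box core appears. H2-D1 carried a second Y box core nearer its start. In B2m the interferon-response core lies ahead of the NF-kappaB consensus, followed by the X2 and Y box cores. H2-T23 held 2 interferon-response cores and a Y box core, without the letters TGACG in this window. Over the 250 bases before the start, the interferon-response core was found in 4 of the 6 genes and in 21.3% of 32851 promoters in the table. The X2 box core was found in 4 of 6 and in 17.8% of promoters, the Y box core in 6 of 6 and 33.8%, and the NF-kappaB consensus in 3 of 6 and 5.0%. The motifs were picked as elements named for class I promoters, so these shares are no test of enrichment. The H2-D1 and H2-K1 windows share a run of 47 bases, so their matches are not independent counts. A match describes letters and is not evidence that a factor binds there.

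**Figure D1:**
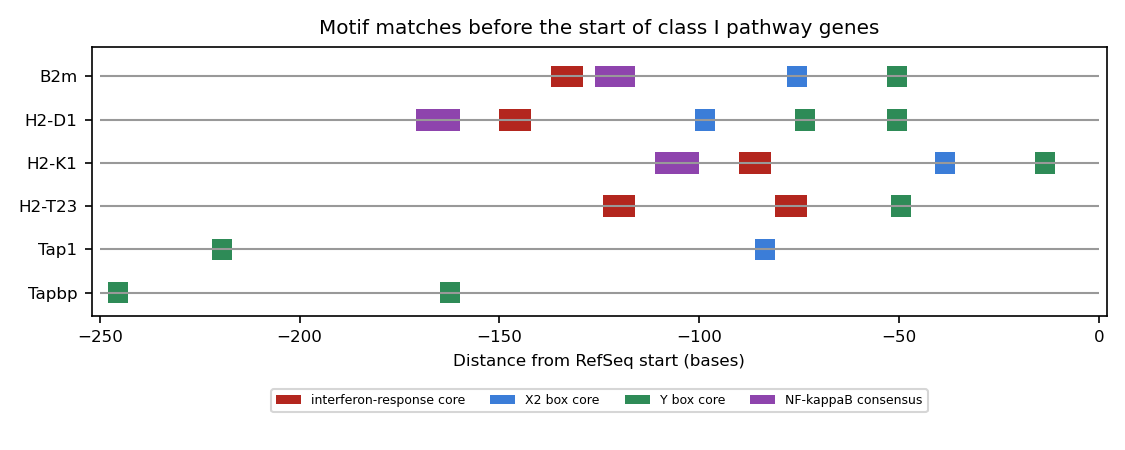
Positions of the 4 motifs in the 250 bases before the RefSeq start of 6 class I pathway genes; the horizontal axis is the distance from the start in bases and each coloured block is 1 match on either strand. The interferon-response core appears in B2m, H2-D1, H2-K1 and H2-T23, and a Y box core in all 6 genes.

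Arrays differed in ways the labels do not give. The 3 slides held the groups unevenly, with 7 shams on slide 1, 3 on slide 3 and none on slide 2, while 3 of the 4 month 3 samples lay on slide 3. Sham 7 and Sham 9 had the lowest sham levels of B2m, H2-D1, H2-K1, H2-T23 and Nlrc5. In 3 of 276 pairs of arrays the distance (1 minus the correlation of levels centred by gene) was under 0.3, each within its own group (Sham 3 with 4, month 3 sample 2 with 3, and month 2 sample 1 with 5). Atrial markers summed to between 7.18 and 7.61 (log2) in Sham 3, 4 and 10 and to between 0.22 and 4.96 in the other shams. The sum of the markers listed as ventricular (Myh6, Tnnt2, Tnni3, Actn2, Ryr2, Myl2 and Myl3) lay between 7.41 and 9.24 on all 24 arrays. It does not measure the share of ventricle in a sample. The level of Myh7 fell into separate ranges, from 1.62 to 2.52 (log2) on 9 arrays and from 4.67 to 5.91 on the other 15. Among the shams, Sham 6 to 9 were in the higher range. Within month 1, samples 2 to 4 were in the lower range. Fits given further down leave out either of these sets. The cause of the split was not tested.

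Class I genes were higher in overloaded right ventricles than after sham surgery, and each of the 7 tested genes had its highest group mean in month 3. Averaged over the 3 months with equal weight, the chain genes B2m, H2-D1, H2-K1 and H2-T23, the tapasin gene Tapbp and the regulator Nlrc5 rose, and Tap2 did not pass the test. That is 6 of the 7 tested members called higher and 0 lower, against 10.9% of all tested genes called higher and 13.6% called lower. The median log2 change of the 7 was 0.55, beside -0.012 over all 12593 genes. The calls are from limma with Benjamini-Hochberg adjustment over all tested genes at a threshold of 0.05. Within slide 3 alone, with 3 shams and 5 PSPI samples, of which months 1 and 2 have 1 each that is assumed to vary like the others, none of the 7 members and none of the 12593 genes was called by limma, although 1657 genes had an unadjusted p under 0.05, and the members' changes there were 0.77 for B2m, 0.64 for H2-D1, 0.62 for H2-K1, 0.60 for H2-T23, 0.40 for Tapbp and 1.66 for Nlrc5.

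B2m encodes the light chain shared by all class I molecules. Its level in the shams ran from 1.35 through a median of 1.55 to 2.02. In month 1 the 5 samples read 2.15, 2.04, 1.84, 1.77 and 2.18, in month 2 they read 2.04, 1.81, 2.16, 2.27 and 1.96, and in month 3 the 4 samples read 2.38, 2.62, 2.65 and 2.37. All month 3 samples lay above every sham, while months 1 and 2 each overlapped the upper shams with 2 of their 5 samples. Over all months B2m rose by 0.58 ± 0.081 (SE, adjusted p = 7.04e-05), with 10 of 14 PSPI samples above every sham. Its 2 spots per array differed by a median SD of 0.042, well under the 0.21 SD between shams.

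H2-D1 is a classical heavy chain. Shams ran from 1.24 through a median of 1.72 to 1.96. The month 1 samples read 2.01, 2.14, 2.06, 1.93 and 2.04, the month 2 samples 1.86, 1.84, 2.07, 2.14 and 1.91, and the month 3 samples 2.10, 2.93, 3.01 and 2.54. Month 3 sample 1 lay within the range of months 1 and 2, and the other three lay above it. The rise over all months was 0.56 ± 0.10 (adjusted p = 0.000606), or 1.47-fold, with 10 of 14 samples above every sham.

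H2-K1, the other classical heavy chain, was measured by 10 spots per array. Its sham levels ran from 1.33 through a median of 1.83 to 1.95. Month 1 samples read 1.96, 2.31, 1.88, 1.88 and 2.09, month 2 samples 1.89, 1.75, 2.14, 2.18 and 1.89, while those of month 3 read 2.31, 2.98, 2.94 and 2.82. The month 3 samples did not overlap the shams, and the lowest of them equalled the highest of month 1 to 2 decimals. H2-K1 rose by 0.50 ± 0.091 over all months (adjusted p = 0.000717), or 1.42-fold, with 9 of 14 samples above every sham. The second H2-K1 probe, fitted as a row of its own among 21040 probes, gave 0.62 ± 0.10 (adjusted p = 0.000307).

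H2-T23 encodes Qa-1, which presents leader peptides of other class I chains to the CD94/NKG2 receptors of natural killer cells. Shams ran from 0.079 through a median of 0.63 to 0.77. The month 1 samples read 0.81, 0.95, 0.84, 0.87 and 0.89, those of month 2 0.84, 0.55, 0.93, 1.08 and 0.85, and those of month 3 1.12, 1.82, 1.94 and 1.43. Only month 2 sample 2 fell within the sham range, so 13 of 14 PSPI samples lay above every sham. The rise over all months was 0.55 ± 0.096 (adjusted p = 0.000511), or 1.46-fold.

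**Figure D2:**
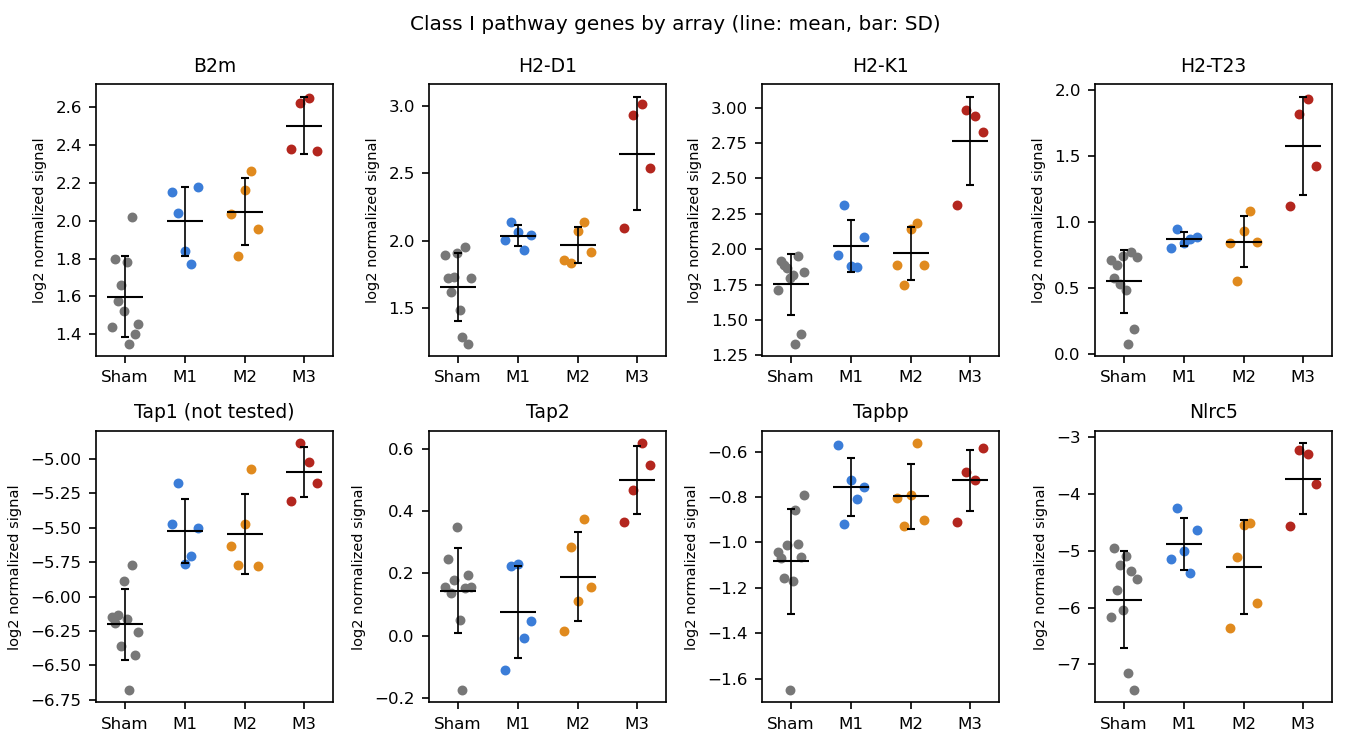
Log2 normalized signal (vertical axis; 0 is the array's own 75th percentile) of the 8 genes on each array, for sham (grey, n = 10) and PSPI months 1 (blue, n = 5), 2 (orange, n = 5) and 3 (red, n = 4); lines are means and bars SD. Levels are not comparable between panels; month 3 lies above every sham in all panels but Tapbp.

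Among the loading genes, Tapbp rose over all months, and Tap2 passed the test in month 3. Tapbp read -1.65 to -0.79 in the shams with a median of -1.05. Its month 1 samples were at -0.57, -0.92, -0.72, -0.81 and -0.76, its month 2 samples at -0.80, -0.93, -0.79, -0.56 and -0.90, and its month 3 samples at -0.91, -0.69, -0.72 and -0.58. The 3 months lay at much the same height, and 8 of 14 samples exceeded every sham. Over all months Tapbp rose by 0.32 ± 0.078 (adjusted p = 0.00565), or 1.25-fold.

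Tap2, a subunit of the peptide transporter, had sham levels from -0.17 through a median of 0.16 to 0.35. Month 1 samples read -0.11, 0.22, 0.23, -0.0082 and 0.048, month 2 samples 0.014, 0.28, 0.11, 0.38 and 0.16, while those of month 3 read 0.36, 0.47, 0.62 and 0.55. Months 1 and 2 lay almost wholly within the sham range, and month 3 just above it. The change over all months was 0.11 ± 0.061 (adjusted p = 0.191).

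Tap1, the other transporter subunit, was dim: its 10-spot probe was well above background on 14 of 24 arrays (4 of 10 shams, 3 of 5, 4 of 5 and 3 of 4 in months 1 to 3), and no group had it on every array. Its level ran from -6.68 through a median of -6.18 to -5.77 in the shams. Month 1 samples read -5.47, -5.18, -5.76, -5.70 and -5.50, month 2 samples -5.63, -5.77, -5.47, -5.07 and -5.78, while those of month 3 read -5.31, -4.89, -5.02 and -5.17. Every PSPI sample but month 2 sample 5 lay above the brightest sham, although the spots of 1 array differed by a median SD of 0.22 against 0.056 for H2-K1. In a fit without a filter on dim probes (23625 genes) the Tap1 differences from sham were 0.68, 0.66 and 1.11 in months 1 to 3. Since 6 of the 10 shams were not well above background, these are differences from values near background and are given as a description.

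Nlrc5, the class I co-activator, had a probe well above background on 20 of 24 arrays: 7 of 10 shams, all 5 of month 1, 4 of 5 in month 2 and all 4 of month 3. It was thus kept for testing through months 1 and 3 alone, so its calls add no support. With only probes well above background on all arrays, the count over all months was 5 of 6 members without it, beside 1084 of 10786 genes. Its sham levels ran from -7.45 through a median of -5.59 to -4.95. Month 1 samples read -5.14, -4.24, -5.00, -5.40 and -4.64, month 2 samples -6.36, -5.11, -4.54, -4.52 and -5.92, while those of month 3 read -4.57, -3.22, -3.29 and -3.83. Every month 3 sample was above every sham, while months 1 and 2 overlapped the shams with 3 of 5 samples each. Over all months Nlrc5 rose by 1.23 ± 0.29 (adjusted p = 0.00503), with 8 of 14 samples above every sham. A second Nlrc5 probe was above background on 3 of 24 arrays and was not tested.

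By month, the calls gathered in month 3. In month 1 limma called 0 of the 7 members and 0% of all genes. At an unadjusted p under 0.05 it held 6 of 7 members and 1529 of 12593 genes. Month 1 changes were 0.40 for B2m (adjusted p = 0.140), 0.38 for H2-D1, 0.27 for H2-K1, 0.32 for H2-T23, 0.33 for Tapbp and 0.98 for Nlrc5 (adjusted p = 0.291), with Tap2 at -0.068. All 5 month 1 samples of H2-T23 lay above every sham, which 0.373% of tested genes did. Without Sham 8, the brightest sham for B2m, B2m was called in month 1 at 0.45 (adjusted p = 0.0479). That was 1 of 24 fits with 1 sample left out, and leaving out the brightest sham raises the change by construction, so it adds no support.

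In month 2 the single member called was B2m, which rose by 0.45 ± 0.11 (adjusted p = 0.0101), against 6.42% of all genes called higher. The other changes were 0.31 for H2-D1 (adjusted p = 0.115), 0.22 for H2-K1, 0.30 for H2-T23 (adjusted p = 0.110), 0.29 for Tapbp (adjusted p = 0.0639), 0.58 for Nlrc5 (adjusted p = 0.324) and 0.044 for Tap2. Of 24 fits with 1 sample left out, Tapbp passed in 2, without Sham 7 (0.31, adjusted p = 0.0426) or Sham 10 (0.32, adjusted p = 0.0440). These were its 2 highest shams, and leaving out a high sham raises the change by construction, so the 2 calls add no support.

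In month 3 all 7 tested members were called higher, against 17.4% of all genes called higher and 21.5% called lower. Nlrc5 is among the 7 but was kept through months 1 and 3 alone, so its call adds no support. With only probes well above background on all arrays, 6 of 6 members were called higher, beside 1709 of 10786 genes. B2m rose by 0.90 ± 0.12 (adjusted p = 4.37e-06, 1.87-fold), H2-D1 by 0.99 ± 0.14 (adjusted p = 2.01e-05, 1.98-fold), H2-K1 by 1.01 ± 0.13 (adjusted p = 4.94e-06, 2.02-fold) and H2-T23 by 1.03 ± 0.14 (adjusted p = 8e-06, 2.04-fold). Nlrc5 rose by 2.14 ± 0.42 (adjusted p = 0.000467), while Tap2 and Tapbp rose less, by 0.35 ± 0.087 (adjusted p = 0.0032) and 0.36 ± 0.11 (adjusted p = 0.0154). In 6 of the 7 genes all 4 samples lay above every sham, as did 5.9% of all tested genes, and for Tapbp 3 of 4 did. The median of the 7 was 0.99, beside -0.036 over all genes. The Nlrc5 change was smaller, at 1.34, with normexp background correction.

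The smaller month 3 calls rested on single choices. With slide as a block Tap2 was at 0.24 (adjusted p = 0.0737). Without month 3 sample 4 Tapbp was at 0.31 (adjusted p = 0.0607). With the 75th percentile taken over all probes, which puts the median of all genes at -0.20, Tap2 and Tapbp were both at 0.19 (adjusted p = 0.0869 and 0.143) and the other 5 stayed past the threshold. Within slide 3, with 3 samples on each side, the other 5 also passed, at 1.09 for B2m, 1.20 for H2-D1, 1.24 for H2-K1, 1.17 for H2-T23 and 2.88 for Nlrc5. Without month 3 samples 2 and 3 the same 5 passed and the members' median was 0.73.

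**Figure D3:**
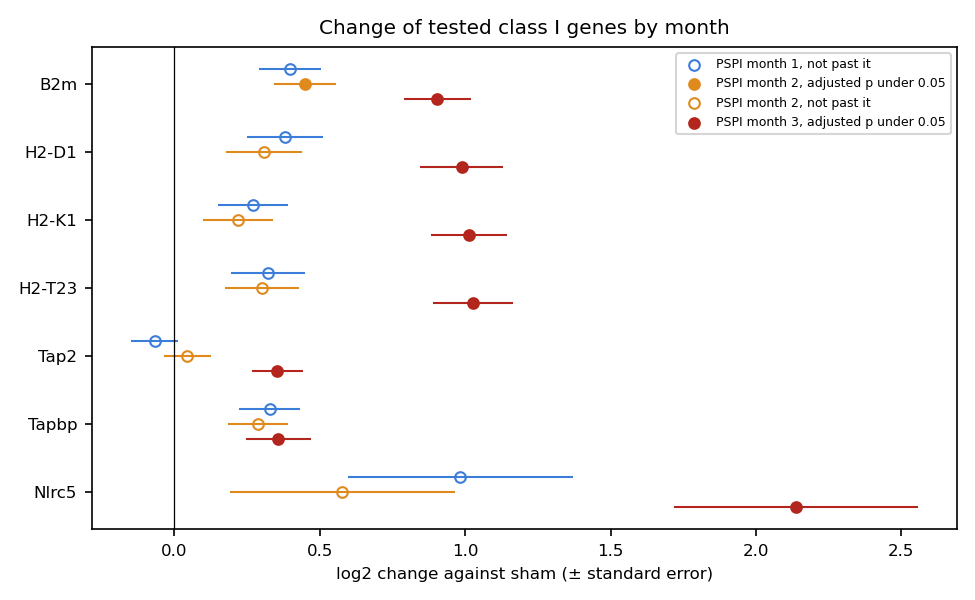
Log2 change against sham (horizontal axis, with standard error bars) of the 7 tested class I genes in PSPI months 1 (blue), 2 (orange) and 3 (red); filled points have an adjusted p under 0.05. Month 3 lies well to the right of months 1 and 2 for all genes but Tapbp, whose 3 changes are 0.33, 0.29 and 0.36.

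The months were also compared with each other. Month 3 was above month 2 for 6 of the 7 genes, against 9.2% of all genes: B2m by 0.46, H2-D1 by 0.68, H2-K1 by 0.79, H2-T23 by 0.73, Tap2 by 0.31 and Nlrc5 by 1.56, while Tapbp differed by 0.07 ± 0.13 (adjusted p = 0.751). Month 3 was above month 1 for 5 of 7, against 12.1% of all genes, with Nlrc5 at 1.15 (adjusted p = 0.0715) and Tapbp at 0.029. Between months 2 and 1 limma called 0 of 7, against 0.00794% of all genes called higher. None of the 7 had an unadjusted p under 0.05 there, and 1614 of all genes did. Leaving out month 3 sample 2 or month 3 sample 3 each left 3 of 7 called against month 2, and B2m, Tap2 and Nlrc5 were then not called. Over all genes 851 and 734 were called higher in these fits, against 1159 in the main fit. Against month 2, Nlrc5 was also not called without month 2 sample 1 (1.29, adjusted p = 0.0730) or sample 5 (1.40, adjusted p = 0.0600), nor Tap2 without month 2 sample 1 (0.27, adjusted p = 0.0854), sample 3 (0.29, adjusted p = 0.0662) or sample 5 (0.30, adjusted p = 0.0573) or month 3 sample 4 (0.29, adjusted p = 0.0772). Without both month 3 samples 2 and 3, 1 of 7 was called against month 2, beside 499 of all genes called higher. Against month 1 it was also 1 of 7, beside 780 genes. The only month 3 sample on slide 2, sample 1, differed from the 4 month 2 samples of that slide by 0.31 for B2m, 0.12 for H2-D1, 0.32 for H2-K1, 0.27 for H2-T23 and 0.56 for Nlrc5. The members' median within that slide was 0.27, against 0.68 in the main fit. With 1 sample in that arm, the absence of member calls there cannot decide on these differences.

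The heavy chain genes varied together from array to array. Across the 24 arrays Pearson's r was 0.977 between H2-D1 and H2-T23, 0.957 between H2-K1 and H2-T23 and 0.941 between H2-D1 and H2-K1. With each group's mean removed the same pairs stood at 0.929, 0.847 and 0.818. B2m followed less closely, with r of 0.859 to 0.887 to the 3 heavy chains and 0.529 to 0.701 within groups. Nlrc5 and the mean of the 4 chain genes had r of 0.891 (Spearman's rho 0.812), and 0.778 within groups. Tap2 and Tapbp were nearly unrelated at 0.059. These values describe 24 arrays that share groups, slides and a scaling per array, and the H2-T23 probe shares bases with another heavy chain probe.

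**Figure D4:**
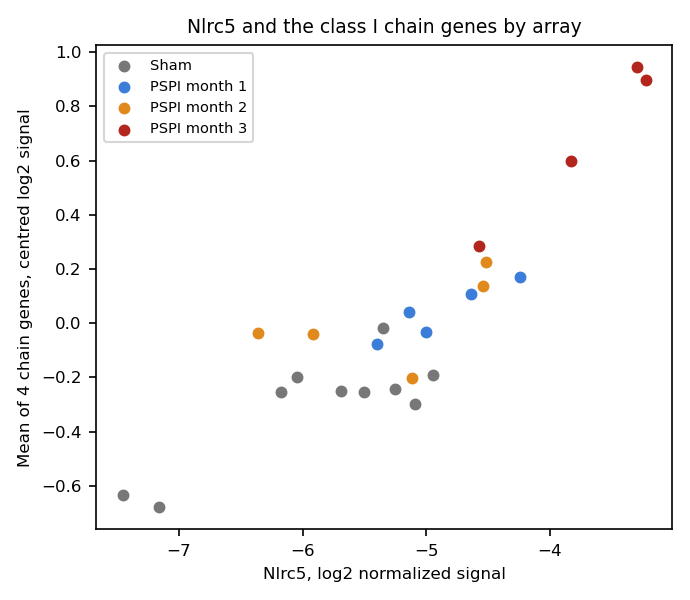
Each point is 1 array: Nlrc5 log2 normalized signal (horizontal axis) against the mean of B2m, H2-D1, H2-K1 and H2-T23 after centring each gene (vertical axis, log2), coloured by group. Month 3 samples 2, 3 and 4 lie at the upper right and Sham 7 and 9 at the lower left.

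Outside the members, the other class I heavy chain genes of the H2 complex moved with them. Of 18 listed, 11 were tested, and over all months 10 rose and 0 fell, with a median of 0.60. Of all genes 10.9% were called higher and 13.6% lower there. H2-K2 rose by 0.68 ± 0.10 (adjusted p = 0.000105), H2-Q4 by 0.73 ± 0.11 (adjusted p = 0.000158), H2-Q6 by 0.66 ± 0.12 (adjusted p = 0.000542) and H2-Q2 by 0.59 ± 0.10 (adjusted p = 0.000563). H2-M3, named here after its value was seen, was the 1 gene not called, at 0.21 (adjusted p = 0.243). In month 3 all 11 rose, with a median of 1.02 and H2-Q4 highest at 2.06 ± 0.16 (adjusted p = 3.47e-09). H2-Q4 had changes of 0.20 and -0.07 in months 1 and 2, neither called. The count in month 3 was 8 with the percentile over all probes, 8 within slide 3, 9 with slide as a block, 9 without Sham 7 and 9, and 8 without month 3 samples 2 and 3. Over all genes these fits called 1362, 925, 1775, 2201 and 1217 higher, against 2195 in the main fit. Some of the listed H2 genes may be alike enough for the array to assign the signal of 1 gene to another, which was not tested.

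Psmb8, Psmb9 and Psmb10 are the catalytic subunits that replace the constitutive ones in the immunoproteasome, and Psme1 and Psme2 form its PA28 activator. Over all months Psmb8 rose by 0.51 ± 0.11 (adjusted p = 0.00243) and Psmb9 by 0.37 ± 0.097 (adjusted p = 0.00828), which is 2 of 5 higher and 0 lower, beside 10.9% and 13.6% of all genes. In month 3 Psmb8 rose by 0.82, Psmb9 by 0.74 and Psmb10 by 0.50, with Psme1 at -0.35 (adjusted p = 0.0505) and Psme2 at -0.11. Of the 3 constitutive counterparts Psmb6 fell by 0.25 over all months (adjusted p = 0.00537), and Psmb5 and Psmb7 were at -0.15 and 0.14.

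The counts for other steps of the pathway stand beside 10.9% of all genes called higher and 13.6% lower over all months, and 17.4% and 21.5% in month 3. Of 5 trimming and loading genes 1 rose over all months, Tapbpl, a tapasin-like peptide editor, by 0.20 (adjusted p = 0.0231), and 1 fell, the chaperone calnexin gene Canx, by 0.29 (adjusted p = 0.00884). None of the 5 was called higher with the percentile over all probes, with slide as a block or without Sham 7 and 9. Erap1, which trims peptides, was at 0.12 and Pdia3 at -0.14, and the list's median was 0.037. Of 7 tested transcription factors of the pathway, 1 rose over all months, the interferon regulatory factor Irf8, by 0.32 (adjusted p = 0.0395), and Irf1 was at -0.10. None of these 7 was called higher over all months with the percentile over all probes or without Sham 3, 4 and 10. In month 3, 3 rose, Irf8 by 0.50, Irf9 by 0.52 and Stat2 by 0.39, and 1 fell, Rfxap by 0.63 (adjusted p = 0.0409). The Rfxap probe was well above background on 8 of 10 shams but on 2 of 4 month 3 samples. It was so on 4 of 5 samples in month 1 and 5 of 5 in month 2, and was thus kept through month 2 alone. Its fall is a difference near background and its call adds no support. Stat2 and Rfxap are named after their values were seen. Rfx5 was well above background on at most 1 array and was not tested. Among 4 interferon receptor genes Ifngr2 fell by 0.27 over all months (adjusted p = 0.00196) and by 0.73 in month 3 (adjusted p = 7.6e-07), while Ifngr1 rose by 0.48 in month 3 (adjusted p = 0.00317). With the percentile over all probes the month 3 counts became 2 higher and 2 lower for the immunoproteasome list, 1 and 3 for the transcription factors and 1 and 3 for the receptors. Within slide 3 they were 2 and 0, 0 and 0, and 0 and 1.

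Class I-like genes outside the H2 complex, several of whose products also pair with beta-2-microglobulin, included none called higher over all months in the main fit. Of 5 tested, Cd1d1, which presents lipids to natural killer T cells, fell by 0.51 (adjusted p = 0.000569), and Mr1 was at 0.28, Hfe at -0.16 and Fcgrt at -0.05. Without Sham 3, 4 and 10, however, 1 of the 5 was called higher and 1 lower, beside 975 and 973 of all genes. The list's median was then 0.047, against -0.061 in the main fit. Of 6 class II genes, which present extracellular peptides to CD4+ T cells, 1 rose over all months, H2-DMb1, by 0.47 (adjusted p = 0.00989), beside 10.9% of all genes. None of the 6 was called over all months with slide as a block or without Sham 3, 4 and 10. Cd74, the invariant chain, was at 0.43 (adjusted p = 0.0733), H2-Eb1 at 0.34 and H2-Ab1 at 0.33. The class II list's median was 0.59 in month 1 and 0.079 in month 2, with 0 called in each. The 7 members had medians of 0.33 and 0.30 in those months. In month 3, 2 of the 6 class II genes rose and their median was 0.42, but -0.081 with 0 called without month 3 samples 2 and 3. The other H2 class I genes kept a median of 0.73 without those samples.

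**Figure D5:**
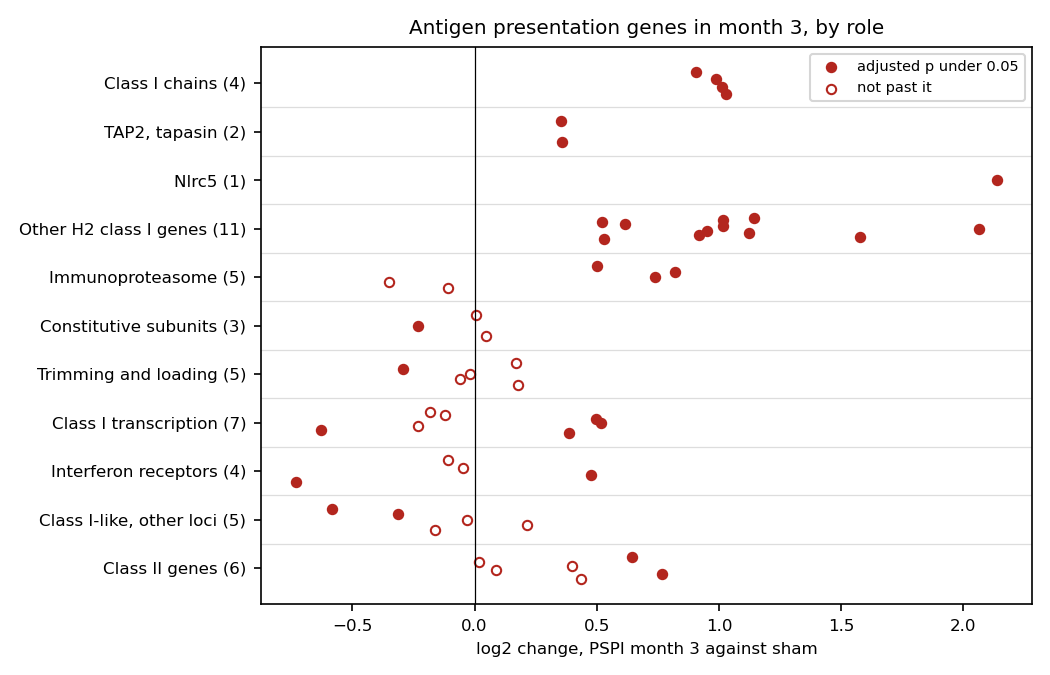
Log2 change of PSPI month 3 against sham (horizontal axis) for each tested gene of the antigen presentation lists, with the number tested in brackets; filled points have an adjusted p under 0.05. The class I chains and the other H2 class I genes all lie to the right of 0, as do Tap2, Tapbp, Nlrc5 and the class II genes, while the other lists hold points on both sides of 0.

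Some markers of other cells were higher in month 3, and their lists were mixed. The summed level of leukocyte and macrophage markers (7 of 9 tested) lay between 2.53 and 2.95 in the shams, 2.74 and 2.91 in month 1, 2.43 and 2.96 in month 2, and 3.21 and 4.28 in month 3. Itgam (CD11b) rose by 1.80 and Cd14 by 0.84 in month 3, and 2 of the 7 were called higher there, against 4 of 7 over all months. The counts called higher in the marker lists stand beside 17.4% of all genes in month 3 and 10.9% over all months. The 7 month 3 changes ran from 0.028 through a median of 0.31 to 1.80, so the sum follows its brightest genes, Itgam among them. Endothelial markers (7 of 7 tested) summed to between 2.46 and 3.06 in the shams and 3.22 and 3.38 in month 3, with Vwf up by 0.85 and Kdr by 0.54. Of these 7 markers 3 were called higher in month 3, and the changes ran from -0.30 through a median of 0.21 to 0.85. T and natural killer cell markers (5 of 12 tested) summed to between -1.63 and -0.31 in the shams and -1.57 and 0.25 in month 3. In month 3 Prf1 read 1.33 and Gzma 0.80 above sham, 2 of the 5 being called. The Prf1 probe was well above background on 8 of 10 shams, 3 of 5 samples in each of months 1 and 2 and all 4 of month 3, so it was kept through month 3 alone and its call supports nothing here. Cd8a, Cd8b1, Gzmb and Ncr1 were well above background on 0 of 24 arrays. Of 4 B cell markers 1 was tested, Cd79b, which rose by 0.68 over all months (adjusted p = 0.0307) and by 0.91 in month 3 (adjusted p = 0.0287). None of 5 dendritic cell markers was tested. Fibroblast markers (5 of 5 tested) summed to between 4.64 and 5.49 in the shams and 5.34 and 5.41 in month 3, within the sham range. Of 4 atrial markers 0 were called in month 3 against sham, with a median of -2.93, and 3 were lower in month 3 than in month 1. In bulk tissue, a change in the number of cells of a type and a change of RNA per cell cannot be told apart, and the part of these cells in the class I values was not tested.

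The genes most like the members across arrays included interferon-inducible and class I genes. For B2m the closest of 12586 ranked genes by Pearson's r were Ifi47 (0.925), Lgals3bp (0.917), Slfn2 (0.900), H2-K2 (0.877) and Rnft2 (0.860). For Nlrc5 they were Tgtp2 (0.939), Ifi47 (0.887), Psmb9 (0.863), Gm11127 (0.830) and H2-Q7 (0.824). For the mean of the 7 members they were Tgtp2 (0.933), Gm11127 (0.929), H2-Q6 (0.927), H2-Q2 (0.926) and H2-K2 (0.918). Ifi47 and Tgtp2 encode GTPases induced by interferon gamma. A Gm11127 probe shares a run of 20 bases with the H2-T23 probe. These likenesses are over 24 arrays that include the group differences.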

How the data were processed

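Right ventricular RNA of 24 samples was read on 1-colour arrays with Agilent Feature Extraction 10.7.3.1, with coordinates on mm9, per the file headers. The deposited scanner files hold linear intensity per spot, background subtracted by that software and not scaled between arrays. The authors' deposited series table also holds intensity. Its value matched the scanner net signal (relative tolerance 0.001) at all 62976 spots of each array. Any later step by the authors is not given in the sources used here.

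Spots marked as controls or outliers (143 to 290 outliers per array) were dropped, and the remaining spots of a probe were averaged. From each log2 signal the array's 75th percentile was subtracted, computed over 16946 probes that every array detected above background. That is the rule for arrays with under 50% of probes detected, which 22 of 24 were (36.1% to 56.1% detected). A probe was kept if some group had it well above background on each of its arrays (21040 of 55681), and the brightest kept probe on average stood for its gene. limma 3.58.1 under R 4.3.3 (lmFit, eBayes) fitted the 4 group means with no covariate, and p-values are two-sided with Benjamini-Hochberg adjustment over 12593 genes. The all-months contrast weights the 3 months equally. Each ± after a change is a standard error. Replicate numbers were taken to pair 2 groups only where all their same-numbered samples deviated together (correlation over 0.1), which held for months 1 and 2. The number of arrays limits the precision.

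The named genes were all 8 members, up to 4 genes of each other pathway list with the smallest p over all months, the 5 genes most like B2m, Nlrc5 and the members' mean, and up to 2 genes of each marker list. The members and lists were chosen with earlier results of these data known. Alternatives covered scaling, background correction, the deposited table, the probe filter and probe rule, the variance model, slide, replicate number and arrays left out. The other pathway lists were run under part of these, chosen after their values were seen, as were the fits without Sham 7 and 9 and without month 3 samples 2 and 3. Promoter sequences are from RefSeq, GRCm38.p6, matched by symbol for 6 of 8 members.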

Additional observations from a re-analysis of the deposited data

Results flagged for a closer look

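The Tapbp level of Sham 5, at -1.651, stood apart from the other 9 shams, of which the nearest was at -1.171. It was the 1 such sample in 32 groups of gene and condition looked at, where chance alone sets apart about 1 in 20 groups.

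The change of several members against sham differed between months, by the direct comparison of months in limma (adjusted over all tested genes). Month 3 exceeded month 2 by 0.4554 for B2m (adjusted p = 0.0168), 0.6804 for H2-D1 (adjusted p = 0.00503), 0.7943 for H2-K1 (adjusted p = 0.00067), 0.7266 for H2-T23 (adjusted p = 0.0023), 0.3103 for Tap2 (adjusted p = 0.0309) and 1.56 for Nlrc5 (adjusted p = 0.0238). Month 3 exceeded month 1 by 0.5057 for B2m (adjusted p = 0.00652), 0.6073 for H2-D1 (adjusted p = 0.00784), 0.7415 for H2-K1 (adjusted p = 0.000912), 0.7053 for H2-T23 (adjusted p = 0.00205) and 0.4222 for Tap2 (adjusted p = 0.00331). Both comparisons use the same 4 month 3 samples, and month 3 samples 2 and 3, the highest of the 4 for B2m and the heavy chains, resembled each other closely.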

How the results depend on the processing

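Counts below are of the 7 tested members called higher, and the cause of a change in them was not tested unless given. Within slide 3 the count was 0 for all months, for month 2, for month 3 against 2 and for month 3 against 1, and within slide 2 it was 0 for month 3 against 2 and against 1. Months 1 and 2 have 1 sample each on slide 3 and month 3 has 1 on slide 2. Each lone sample is assumed to vary like the others, so these counts of 0 cannot decide on stability. The members' median for month 3 against 2 was 0.27 within slide 2 and 0.88 within slide 3, against 0.68 in the main fit. For month 3 against 1 it was 0.24 within slide 2 and 0.78 within slide 3, against 0.61 in the main fit. With slide as a block the count was 2 for month 3 against 2, beside 525 of all genes called higher, against 1159 in the main fit. Close arrays (named by an earlier analysis and only in part borne out by the distances here) were also averaged to 17 samples. The count was then 0 in month 2 and 2 for month 3 against 2. Over all genes 6 and 566 were then called higher, against 808 and 1159 in the main fit. Nlrc5 over all months was at 1.10 with these averages (adjusted p = 0.0634). Month 2 had 2 called of 8 without a filter, B2m and the dim Tap1, beside 417 of 23625 genes called higher. Without Sham 7 and 9 it had 2 of 7, beside 1092 genes. Month 1 had 1 without Sham 6 to 9, the shams with higher Myh7, beside 100 genes. Month 3 against 1 had 3 without month 1 samples 2 to 4, which had lower Myh7, beside 533 genes. Without month 3 samples 2 and 3 there was 1 against month 2, beside 499 genes, and 1 against month 1, beside 780. Leaving out 1 sample at a time gave 0 to 1 in month 1, 1 to 2 in month 2 and 3 to 6 for month 3 against 2.

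Same-numbered samples of months 1 and 2 met the rule for pairing, with correlations of 0.187 to 0.514 in all 5 pairs. Samples 2 to 4 of both months lay on slide 2 and sample 5 of both on slide 3. For those pairs, pairing and a shared slide cannot be told apart. With the replicate block the count for month 2 against 1 was 0, as without it. The numbers did not pair the other groups: over all 27 same-numbered pairs the correlations ran from -0.447 to 0.514 (median 0.0053), and 9 exceeded 0.1. With the replicate block the count was 6 for all months, 0 in month 1, 2 in month 2 and 7 in month 3. Over all genes 1578, 49, 1380 and 2194 were called higher there. Tap2 in month 2 was at -0.025 with that block.

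Directions turned only for genes that were not called. Tap2 in month 2 was at -0.070 with slide as a block, -0.076 within slide 3, -0.015 without Sham 6 to 9, and from -0.0029 to 0.087 with 1 sample left out. Tapbp in month 3 against 2 was at -0.071 with the percentile over all probes and -0.14 within slide 2. Over all genes, month 3 had 2195 called higher and 2710 lower, against 1362 and 4577 with the percentile over all probes and 2919 and 1665 with normexp. Signal near background limits Tap1 and Nlrc5, which were well above background on 14 and 20 of 24 arrays.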
